A study of Mus musculus with 8 samples.

Results

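Differentiation of YAP knockdown embryonic stem cells was described window by window, as the methylation of YAP KD cells at T4 minus that of YAP KD cells at T0. Every window listed for this comparison was included, without selection on its values. There were 42770 windows, out of 54235 listed in at least 1 of the 4 comparisons of the series, and 12740 genes had the transcription start site (TSS) nearest to at least 1 of them. A window is a stretch of 250 bp, and neighbouring windows overlap, so that they share bases. Each value is the difference in the percentage of methylated CpGs between the libraries of T4 and those of T0, given in percentage points, so that a negative value is a loss of methylation during differentiation.

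The cells were E14Tg2a mouse embryonic stem cells (ESCs), an established line that came from a blastocyst and was grown here without feeder cells. The 4 groups were YAP KD T4, YAP KD T0, CTR KD T4 and CTR KD T0, with 2 samples each. YAP KD cells had been transiently transfected with siRNAs targeting mouse YAP and CTR KD cells with a scrambled siRNA. T0 cells were undifferentiated and pluripotent, and T4 cells had been differentiated for 4 days toward neuroectoderm as floating serum-free aggregates. The knockdown was transient, and the study states that YAP was back at its usual level at day 4, so YAP KD T4 denotes cells that had low YAP at the start of differentiation. The DNA of a group's samples came from independent experiments.

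DNA methylation at CpGs is copied at each cell division by Dnmt1 and is set on unmethylated DNA by Dnmt3a and Dnmt3b, with Dnmt3l as a cofactor that has no catalytic activity. Tet enzymes oxidise the mark, and it is also diluted when cells divide without copying it. When ESCs leave the naive state, methylation is set anew over much of the genome, while most CpG-rich promoters stay unmethylated. YAP is a transcriptional co-activator that binds DNA through TEAD factors and is held in the cytoplasm by the kinases of the Hippo pathway.

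The values are differences between groups. No value per sample, no methylation level and no read depth is attached to a window in the tables used here, so single samples could not be shown, markers of cell identity could not be checked and the depth is unknown. The standard error (SE) given beside a difference was derived from its p-value and had a median of 0.593 points over the 42770 windows. The changes of YAP KD and CTR KD cells were compared at each window by a z test, two-sided and adjusted after Benjamini and Hochberg over the 38549 windows that both comparisons list with an SE. The p-values compare these libraries, and how far they cover the spread between the independent experiments is unknown. On mitochondrial DNA, 46 windows ranged between -0.312 and 0.554 points, with 0 past the threshold used for a changed window. Over the 37980 windows listed in all 4 comparisons, the change in YAP KD minus that in CTR KD and the knockdown difference at T4 minus that at T0 agreed within 0.5 points for 93.4% of windows.

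The sequences below are 9 of the windows that the results turn on, all in single-copy sequence. They are shown as the C57BL/6J reference has them on the plus strand of mm9 (NCBIM37), 5′ to 3′, with each CpG in capitals, because the CpGs are the positions at which methylation was measured. The first 3 windows gained methylation. They lie in an intron of the noncoding gene 4933407K13Rik at chrX:73004376-73004625, in a coding exon of Sall4 at chr2:168581376-168581625 and in a coding exon of Tpi1 at chr6:124762376-124762625.
4933407K13Rik: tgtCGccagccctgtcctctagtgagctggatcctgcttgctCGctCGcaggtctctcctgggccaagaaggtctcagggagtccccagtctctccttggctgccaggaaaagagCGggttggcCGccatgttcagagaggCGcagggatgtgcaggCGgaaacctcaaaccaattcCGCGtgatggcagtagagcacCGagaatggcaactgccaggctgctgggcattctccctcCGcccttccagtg
Sall4: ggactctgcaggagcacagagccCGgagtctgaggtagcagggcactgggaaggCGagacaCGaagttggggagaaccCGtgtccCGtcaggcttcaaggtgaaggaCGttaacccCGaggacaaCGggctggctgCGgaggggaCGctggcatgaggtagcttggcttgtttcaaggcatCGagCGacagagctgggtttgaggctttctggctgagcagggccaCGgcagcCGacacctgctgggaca
Tpi1: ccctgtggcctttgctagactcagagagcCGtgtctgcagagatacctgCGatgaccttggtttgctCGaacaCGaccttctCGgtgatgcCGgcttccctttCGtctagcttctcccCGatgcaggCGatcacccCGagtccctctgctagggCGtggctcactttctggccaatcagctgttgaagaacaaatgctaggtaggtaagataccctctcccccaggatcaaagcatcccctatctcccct

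The next 3 windows lost methylation. They lie in an intron of Slc26a5 at chr5:21352751-21353000, in an exon of Zdhhc25 at chr15:88431376-88431625 and in an intron of Fgfr2 at chr7:137406001-137406250.
Slc26a5: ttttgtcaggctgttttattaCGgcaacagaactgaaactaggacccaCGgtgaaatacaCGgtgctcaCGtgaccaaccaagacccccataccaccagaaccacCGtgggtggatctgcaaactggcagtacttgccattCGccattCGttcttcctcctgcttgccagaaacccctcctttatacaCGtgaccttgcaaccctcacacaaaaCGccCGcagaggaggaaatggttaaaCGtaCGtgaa
Zdhhc25: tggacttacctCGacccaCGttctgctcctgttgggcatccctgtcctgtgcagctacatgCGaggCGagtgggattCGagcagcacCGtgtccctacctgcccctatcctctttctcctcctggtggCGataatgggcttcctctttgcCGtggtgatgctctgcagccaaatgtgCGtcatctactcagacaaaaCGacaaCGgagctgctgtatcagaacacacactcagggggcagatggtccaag
Fgfr2: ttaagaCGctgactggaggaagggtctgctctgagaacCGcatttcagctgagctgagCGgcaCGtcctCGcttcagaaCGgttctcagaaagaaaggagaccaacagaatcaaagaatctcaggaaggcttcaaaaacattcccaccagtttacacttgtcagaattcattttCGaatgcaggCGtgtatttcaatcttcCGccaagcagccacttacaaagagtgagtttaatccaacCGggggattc

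The last 3 windows changed differently in YAP KD and in CTR KD cells. They lie in a coding exon of Nfatc4 at chr14:56448626-56448875, in an intron of Mta3 at chr17:84167626-84167875 and in an intron of Frmpd1 at chr4:45259251-45259500.
Nfatc4: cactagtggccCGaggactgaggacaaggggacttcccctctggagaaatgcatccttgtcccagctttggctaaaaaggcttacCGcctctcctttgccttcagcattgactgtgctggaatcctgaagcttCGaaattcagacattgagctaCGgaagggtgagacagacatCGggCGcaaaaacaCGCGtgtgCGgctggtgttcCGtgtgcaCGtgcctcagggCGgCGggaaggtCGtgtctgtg
Mta3: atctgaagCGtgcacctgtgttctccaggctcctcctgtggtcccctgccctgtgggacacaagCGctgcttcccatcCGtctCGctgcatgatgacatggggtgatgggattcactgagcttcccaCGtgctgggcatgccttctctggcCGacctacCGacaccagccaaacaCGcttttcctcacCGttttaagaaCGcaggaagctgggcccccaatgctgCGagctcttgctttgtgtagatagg
Frmpd1: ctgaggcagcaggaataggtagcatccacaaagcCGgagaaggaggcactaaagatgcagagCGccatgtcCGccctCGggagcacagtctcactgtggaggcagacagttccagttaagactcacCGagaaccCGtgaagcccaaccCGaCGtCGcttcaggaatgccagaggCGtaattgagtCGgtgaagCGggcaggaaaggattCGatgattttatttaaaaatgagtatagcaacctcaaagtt

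These windows held between 10 and 14 CpGs and a GC content between 47.2% and 62.4%. Over all windows the median was 15 CpGs and 58.8% GC, and over gained and lost windows it was 11 CpGs for each, with 54.4% and 53.6% GC.

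Methylation changed little at most windows, and where it passed the threshold it fell more often than it rose. The median difference was -0.168 points in YAP KD cells and -0.0725 points in CTR KD cells. In YAP KD cells 58.9% of windows had a negative difference, 66.7% lay within 1 point of 0, and the values ranged between -42.0 and 23.9 points. A window was called a differentially methylated region (DMR) when its q-value was at or below 0.05 and its difference was over 10 points. By this rule 1647 of 42770 windows were DMRs (3.85%), of which 216 gained methylation (0.505% of all windows) and 1431 lost it (3.35%). Gains were 13.1% of the DMRs, and their median was 12.3 points, while the median of the losses was -13.8 points. Among the largest changes the losses were still more prominent: 223 windows lost and 11 gained over 20 points, and 13 windows lost over 30 points.

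Windows with few CpGs and windows away from a TSS changed most often. Among windows with 5 to 9 CpGs, 13.4% lost and 1.28% gained methylation in YAP KD cells, while in CTR KD cells the shares were 9.33% and 3.13%. Among windows with 25 or more CpGs, 0.357% lost methylation and 0 of 5324 gained it in YAP KD cells. The decline with CpG number was present on both sides of a distance of 1 kb. Within 1 kb of a TSS the share of lost windows was 10.8% at 5 to 9 CpGs and 0.194% at 25 or more, and further away it was 15.2% and 1.44%.

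Distance from a TSS followed the same pattern for losses. Of windows centred within 250 bp of a TSS, 1.2% lost and 0.167% gained methylation, while of the 364 windows over 100 kb away 16.2% lost and 1.1% gained it. The error moved with these classes too. The median SE was 1.27 points at 5 to 9 CpGs and 0.471 points at 25 or more, and its part in the trend was not tested.

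**Figure D1:**
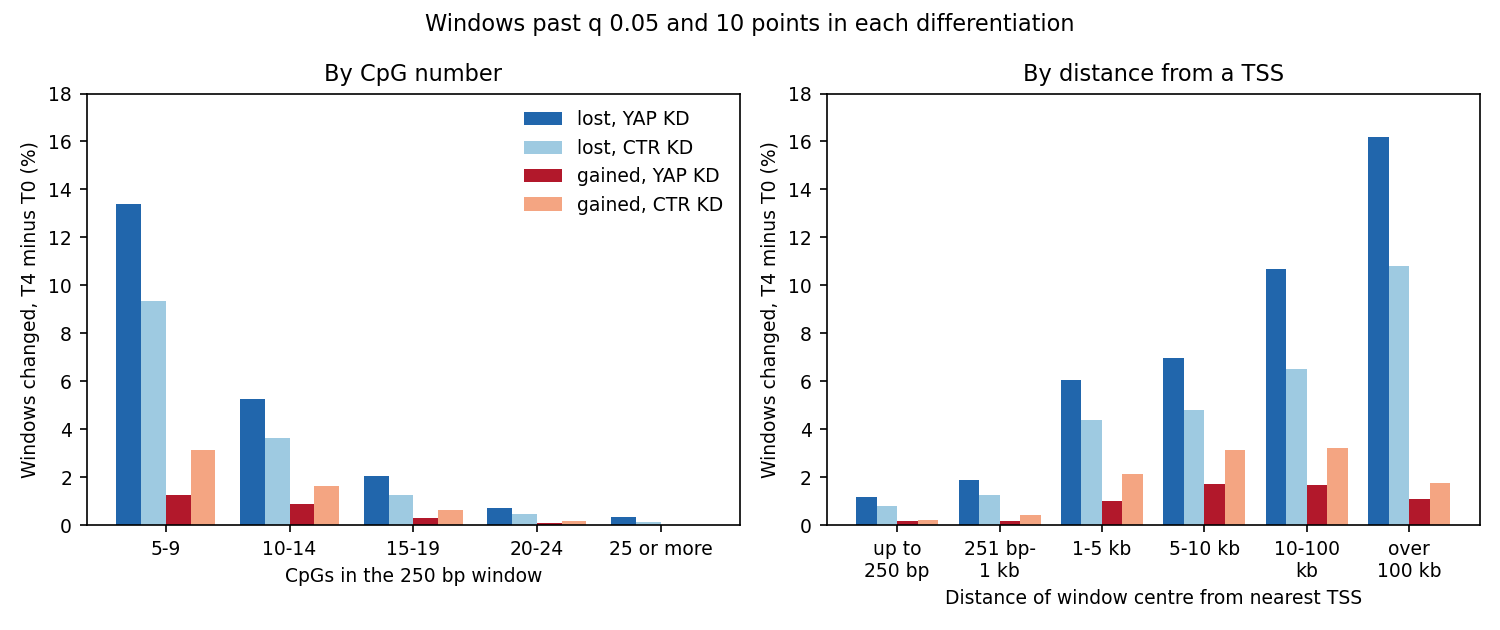
Share of windows past a q-value of 0.05 and 10 points, in percent, by the number of CpGs in the window (left) and by the distance of its centre from the nearest TSS (right), with a bar each for losses and gains in YAP KD and CTR KD differentiation. Losses in YAP KD stand at 13.4% of windows with 5 to 9 CpGs and 0.357% of those with 25 or more, and at 1.2% within 250 bp of a TSS and 16.2% beyond 100 kb.

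The kind of sequence separated gains from losses. Coding exons held 46.8% of gained and 20.7% of lost windows, against 19.9% of all windows, and intergenic sequence held 14.8% of gained and 36.3% of lost windows, against 29.03% of all. After DMRs that overlap or touch and go the same way were merged, there were 1170 regions, 164 gained and 1006 lost. Gains were 26.3% of the regions in coding exons (72 of 274, Wilson 95% interval 21.4 to 31.8%) and 6.48% of those in intergenic sequence (26 of 401, 4.46 to 9.33%). In exons of noncoding transcripts they were 2.63% (2 of 76, 0.725 to 9.10%), in introns 14.8% (11.5 to 18.8%) and in untranslated regions 18.9% (10.6 to 31.4%). The interval of coding exons lay above those of intergenic sequence, introns and noncoding exons and overlapped that of untranslated regions. These intervals cover counting only, since nearby regions are not independent, and the differences were not tested further.

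Promoters of pseudogenes lost methylation more often than those of protein-coding genes. Within 1 kb of a TSS, 16.6% of the 663 windows nearest to a pseudogene lost and 0.302% gained methylation, and their median difference was -1.79 points. For the 28119 promoter windows of protein-coding genes the shares were 1.1% and 0.167%, and for 1016 windows of long intergenic noncoding RNAs they were 0.689% and 0. Pseudogenes often have near copies elsewhere, and reads cannot always be assigned between copies, but the part of copies in these losses was not tested. Of 2225 windows in repeated sequence 12% lost and 1.21% gained methylation, while of 40545 windows in single-copy sequence 2.87% lost and 0.466% gained it.

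The extent of a change could be followed only where neighbouring windows were listed. Of the 1006 lost regions, 249 and 288 had a listed window overlapping the strongest one on either side, and of the 164 gained regions 48 and 44 had one, so the number of windows in a region depends on which windows were listed. Of the 1170 regions 813 were a lone window, 288 had 2 windows, 69 had 3 or more and 12 had 5 or more, and the longest was 1125 bp. Around the window with the largest loss of each region, where the median was -13.8 points, windows 250 bp away share no base with it. They had medians of -5.61 points upstream along the chromosome (108 windows) and -7.47 points downstream (105 windows), and 96.3% and 96.2% of them had a negative difference. At 500 bp the medians were -3.33 and -2.31 points and at 1000 bp -2.70 and -1.30 points. Gained regions had a median of 12.4 points at their centre and of 9.26 and 10.2 points at the overlapping windows on either side, and further out fewer than 20 windows each were measured.

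**Figure D2:**
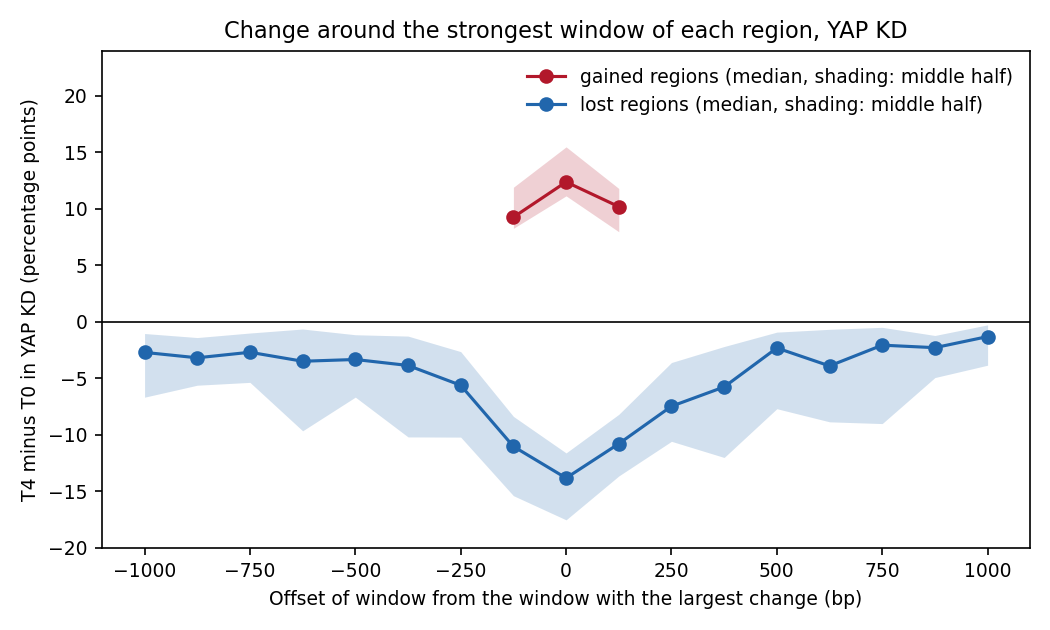
Median difference of YAP KD T4 minus YAP KD T0 in percentage points at windows offset from the window with the largest change of each merged region, in bp along the chromosome, for gained and lost regions. Lines join medians, shading spans the 25th to 75th percentile, and only offsets with at least 20 windows are drawn. Lost regions have medians of -13.8 points at the centre, -5.61 and -7.47 points at 250 bp and -2.70 and -1.30 points at 1000 bp.

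The values of the DMRs described next, 3.85% of all windows, chose them, so they are given as descriptions. The position of a window is that of its centre relative to the nearest TSS in the direction of the gene, negative when it is upstream. The TSSs of all transcripts were used, so the nearest TSS can lie inside a gene. The largest loss in YAP KD cells lay at chr10:78784501-78784750, between genes and -34696 bp from Vmn2r82, a vomeronasal receptor. It was -42.0 points (SE 2.60, q = 4.98e-56) in YAP KD cells and -30.7 points in CTR KD cells. The window nearest to Vmn1r3, at chr4:3127501-3127750, had -38.2 points in YAP KD cells (SE 2.08) and belonged to a region of 6 windows. Both windows lie in repeated sequence, with a median of 10 and 15 copies in the genome, so the reads may come from several loci.

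In single-copy sequence the largest loss was that of Slc26a5, which encodes prestin, the motor protein of outer hair cells. The window lies in an intron, 275 bp from the nearest TSS, and differed by -33.7 points in YAP KD cells (SE 2.44, q = 1.43e-40) and by -17.4 points in CTR KD cells. Its sequence, printed above, holds 12 CpGs and 2 copies of the E-box CACGTG. The next losses were those of an intron of Gm13242, at chr4:145174876-145175125 and -69 bp from the TSS of Gm13212, with -32.4 points (SE 1.92), and of an intron of Gm16889 at chr4:146823501-146823750 with -31.7 points (SE 1.32). Zdhhc25, annotated here with a noncoding exon at the window and named as a member of the palmitoyltransferase family, had -31.2 points (SE 2.66, q = 2.87e-29) in YAP KD cells and -26.3 points in CTR KD cells.

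The other large losses fell at genes of unrelated kinds. H2-Eb1, a chain of the class II major histocompatibility complex, had -30.8 points in a coding exon at chr17:34446501-34446750. Fkbp6, needed for meiosis in the male germ line, had -29.9 points at chr5:135825876-135826125, -105 bp from its TSS. A window nearest to Dppa3, an oocyte and naive ESC factor that guards methylation marks, had -29.8 points at chr6:122594501-122594750, but 17854 bp from its TSS and in sequence with a median of 3 copies. Gm3209 had -29.9 points at an intergenic region of 3 windows.

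Promoter windows, within 1 kb of a TSS, gave further losses. A window at the start of Itgad, a leukocyte integrin chain, had -27.6 points at chr7:135297751-135298000, -15 bp from the TSS. The Fgfr2 window printed above had -26.4 points (SE 3.23, q = 2.54e-14), and -754 bp is its position relative to the nearest TSS of this FGF receptor gene. Neither window was listed in the CTR KD comparison, so its change there is not known. Vnn1, a pantetheinase, had -26.2 points in YAP KD cells and -26.5 points in CTR KD cells, within a coding exon at chr10:23614751-23615000. The noncoding gene 4930578N16Rik had -28.1 points at chr2:69604251-69604500, and Gm13157 and Gm14414 had -27.6 and -27.0 points 20 bp from their TSS, both in repeated sequence.

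The region of most windows was a loss. Its 8 windows, at chr2:158439501-158440625, lie in a coding exon of Slc32a1, the vesicular transporter of GABA. Its largest difference was -19.6 points in YAP KD cells (SE 3.45) and -8.82 points in CTR KD cells, and its median over windows was -13.6 points. Regions of 6 windows lay at an exon of Gm2792 with a largest difference of -27.2 points in repeated sequence, near Ppp2r2d, a regulatory subunit of protein phosphatase 2A, with -26.3 points, and in an intron of Atf7ip, a partner of the histone methyltransferase Setdb1, with -24.01 points. Among gains, the region of most windows lay in a coding exon of Trim71, an RNA-binding repressor of early development. It spanned 6 windows at chr9:114421751-114422750, and its largest difference was 14.5 points in YAP KD cells and 20.1 points in CTR KD cells.

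Of the 10 largest gains 6 lay in coding exons, among them those of several genes that every cell uses. The 4933407K13Rik window gained most, with 23.9 points in YAP KD cells (SE 2.49, q = 1.44e-19) and 27.5 points in CTR KD cells. Tpi1, the glycolytic enzyme triosephosphate isomerase, had 20.4 points in YAP KD cells (SE 1.80, q = 3.03e-27) and 20.2 points in CTR KD cells. The window lies in a coding exon, 358 bp from the nearest TSS of any transcript of the gene. Hsp90ab1, the constitutive cytosolic Hsp90, had 20.1 points in a coding exon at chr17:45706501-45706750, 60 bp from the nearest TSS of any of its transcripts. Ybx1, an RNA-binding cold-shock protein, had 19.8 points at chr4:118951501-118951750. Highly expressed genes of this kind have processed copies in the genome. These 3 windows were single-copy by the median count of their 31-mers, which can miss copies of a part of a window. Whether reads from such copies were assigned to them was not tested. Kifc1, a kinesin of the spindle, had 18.9 points in sequence with a median of 2 copies.

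Sall4, a zinc finger factor of pluripotent cells, gained methylation in a coding exon. The exon lies upstream of the nearest TSS, so this TSS is inside the gene and is not its first. The printed window, whose centre is -57 bp from that TSS, had 22.0 points in YAP KD cells (SE 2.80, q = 2.62e-13) and 13.2 points in CTR KD cells. This difference between knockdowns did not pass the z test (z test from the authors' p-values, adjusted p = 0.368). The window lay in a region of 2 windows whose median was 20.02 points. Other gains lay in a coding exon of Eml4, a microtubule-binding protein, with 22.6 points in YAP KD cells and 22.0 points in CTR KD cells at chr17:83876501-83876750, and in a coding exon of Myo10, a myosin of filopodia, with 21.6 points in YAP KD cells and 21.2 points in CTR KD cells. Away from genes, windows nearest to Fignl1, Wisp3 and Pim3 had 22.9, 22.0 and 20.3 points in YAP KD cells.

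**Figure D3:**
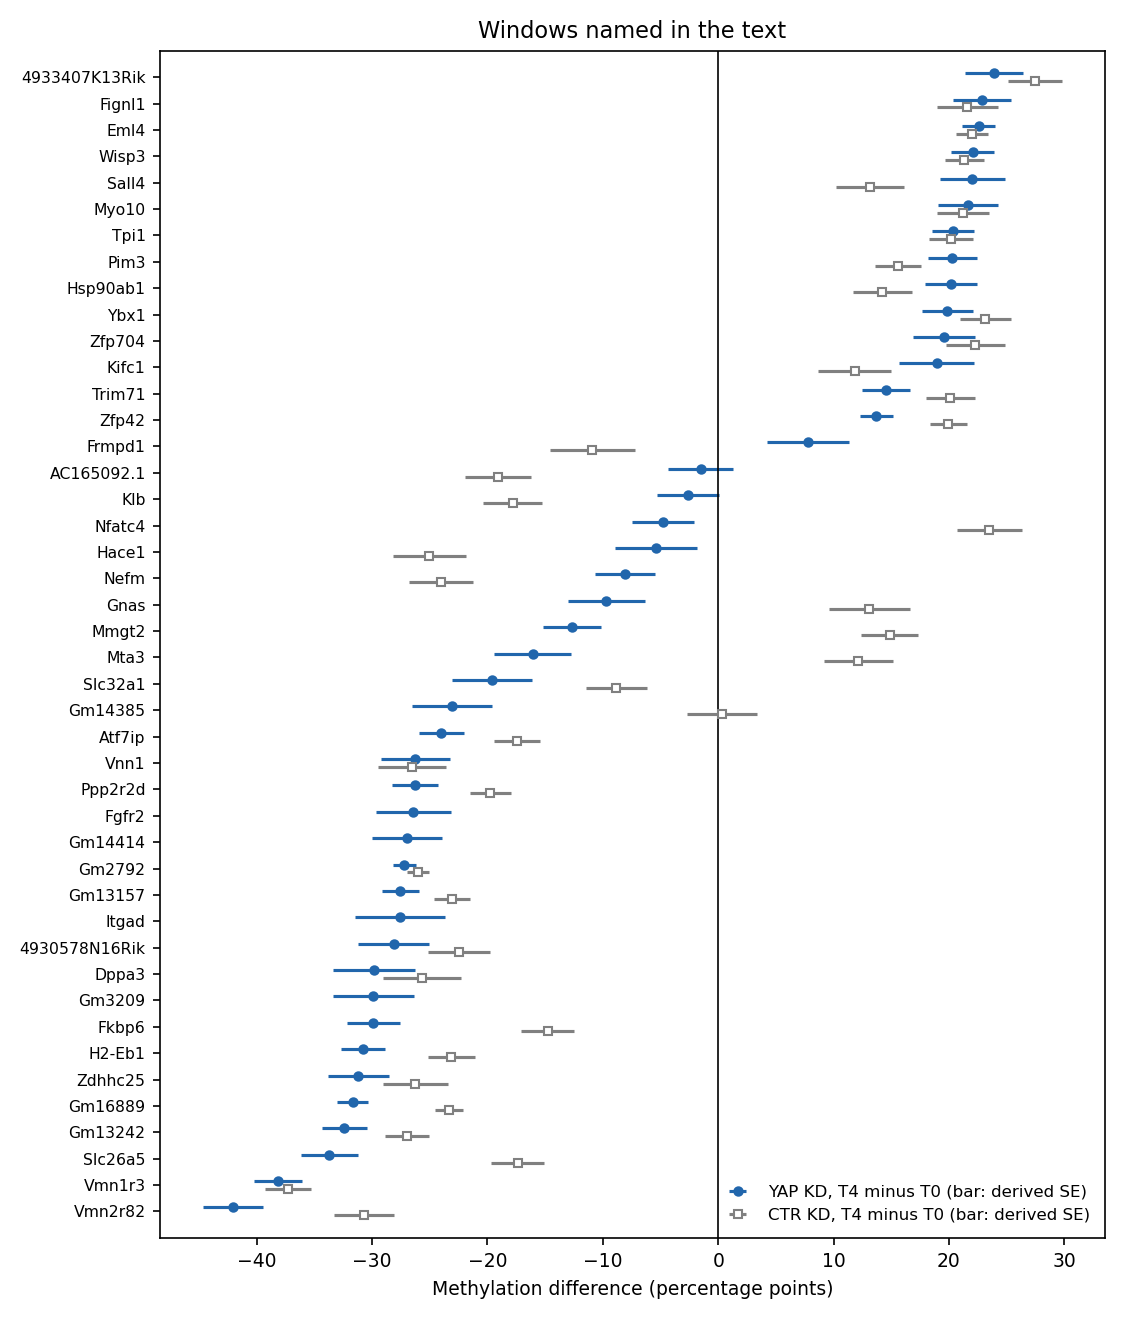
Methylation difference of T4 minus T0 in percentage points at the windows with the largest gains, the largest losses, the longest regions and the largest differences between knockdowns, for YAP KD (filled circles) and CTR KD (open squares), with bars for the derived SE; a missing square means that the window was not listed for CTR KD. Tpi1 lies at 20.4 points in YAP KD and 20.2 points in CTR KD, Slc26a5 at -33.7 points in YAP KD and -17.4 points in CTR KD, and Nfatc4 at -4.78 points in YAP KD and 23.5 points in CTR KD.

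Gene lists were read by counts. Over all 12740 genes, 152 (1.19%) were nearest to a window that gained methylation, 880 (6.91%) to a window that lost it, and 6 to both kinds. A list's share was read against these values and its median difference against the median of all windows, -0.168 points. In the naive pluripotency list, 3 of 19 measured genes gained (15.8%) and 1 lost methylation (5.26%), with a median of 0.12 points. These 19 genes had 120 windows, against 42770 for 12740 genes in all. A gene with more windows has more chances of a DMR, and the part of window number in these shares was not tested. Beside Sall4, the gains were at Zfp42, also called Rex1, with 13.7 points in a coding exon at chr8:44381501-44381750, and at Tcl1, a co-activator of Akt kinases, with 12.98 points, 51 bp from its TSS. Zfp42 had 19.95 points in CTR KD cells and lies in sequence with a median of 2 copies, and the lost gene was Dppa3. In the formative and primed epiblast list 0 of 10 genes gained and 2 lost methylation, Dnmt3a and Fgf15, with a median of -0.17 points.

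Germline genes that somatic cells silence by promoter methylation had the largest share of losses, 7 of 17 genes (41.2%), with 0 gains and a median of -6.06 points. The factors among them act in meiosis and gametes. Catsperg1, a subunit of the calcium channel of sperm, had -25.6 points in YAP KD cells and -24.7 points in CTR KD cells in a region of 4 windows. Sohlh2, a regulator of germ cell differentiation, had -21.5 points in YAP KD cells and -20.8 points in CTR KD cells. Stra8, which gates the entry into meiosis, had -20.01 points in YAP KD cells and -24.5 points in CTR KD cells in a region of 5 windows. Figla, Hormad1 and Hormad2 had -15.7, -14.4 and -12.9 points in YAP KD cells. The Figla window lies -13435 bp from its TSS, and within 10 kb of a TSS 6 genes of the list had a loss.

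Genes of later lineages lost methylation as well. Of 41 neural patterning and neurogenesis genes 14 lost and 0 gained methylation (34.1%, median -1.53 points). Fezf2, a factor of forebrain neurons, had -27.3 points in YAP KD cells and -22.1 points in CTR KD cells at chr14:13174626-13174875. Zic4, a cerebellar zinc finger factor, had -23.8 points in YAP KD cells and -30.6 points in CTR KD cells. The window nearest to En1 had -24.8 points but lies 193005 bp from its TSS. Another 10 of the lost genes were Pax5, Pax3, Pax7, Nkx2-1, Lmx1a, Emx1, Dbx1, Emx2, Olig2 and Nkx6-1, with -23.2 to -10.05 points. Emx2 had -11.6 points in YAP KD cells and 1.09 points in CTR KD cells (z test from the authors' p-values, adjusted p = 0.00457).

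Of 27 mesoderm and endoderm genes 8 lost and 0 gained methylation (29.6%, median -1.18 points). The largest differences were those of Foxa1, a pioneer factor of endoderm, with -17.5 points, and of Eomes, Hand1 and Lmo2, with -15.4, -13.7 and -13.2 points. Eomes and Hand1 were also the 2 lost genes among 10 trophoblast genes. Windows of these lists lie further from a TSS than most: the median distance was 1799.5 bp for the neural list and 1520 bp for the mesoderm and endoderm list, and 357 bp for all windows. The lists also have many windows, 342 for 41 neural genes and 166 for 27 mesoderm and endoderm genes, against 42770 for 12740 genes in all. The part of distance and of window number in these shares was not tested. Of 35 Hox genes, which had 209 windows, 5 lost methylation (14.3%, median -0.98 points). Hoxa7 stood at -21.9 points and Hoxd3 at -20.8 points in YAP KD cells, against -20.2 and -20.7 points in CTR KD cells.

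Among imprinted genes, which carry methylation on the allele of 1 parent only, 1 of 32 gained and 5 lost methylation (3.12% and 15.6%, median -1.14 points), and within 10 kb of a TSS 3 lost it. The gain was at Commd1, with 12.8 points in YAP KD cells and 1.49 points in CTR KD cells at chr11:22872376-22872625. Peg10, a retrotransposon-derived gene of the placenta, had -13.6 points in YAP KD cells and 7.12 points in CTR KD cells, 444 bp from its TSS. The knockdown difference at this window, that is YAP KD minus CTR KD at a single time, was -4.62 points at T4 (q = 0.443) and 16.1 points at T0 (q = 6.23e-05). Slc38a4, an amino acid transporter, had -13.8 points in YAP KD cells and 3.64 points in CTR KD cells. These 3 changes differed between the knockdowns (z test from the authors' p-values, adjusted p = 0.000485, 3.26e-05 and 0.000549). Usp29, Igf2r and Dio3 had -23.9, -16.1 and -11.5 points in YAP KD cells, at windows 16004, -345 and 40810 bp from their TSS. The Igf2r window lies in an intron of Airn.

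Of 27 classical cadherins and related genes 10 lost and 1 gained methylation (37% and 3.7%), although the median over their windows was only -0.48 points, and 0 of them lost over 20 points. Pcdh17, a non-clustered protocadherin, had -14.7 points in YAP KD cells and -17.5 points in CTR KD cells. Cdh5, the cadherin of endothelium, had -15.5 and -9.91 points at a window -24150 bp from its TSS, and Cdh22 had -14.1 and -7.09 points. At none of these windows did the difference between knockdowns pass the z test. Celsr1, an atypical cadherin of planar polarity, had -13.6 points in YAP KD cells at a window not listed for CTR KD. The gain was 10.04 points in a coding exon of Fat1. Of 22 clustered protocadherins, adhesion molecules that neurons express in different combinations, 6 lost and 0 gained methylation (27.3%, median -2.87 points). Pcdha11 had -21.3 points in YAP KD cells and -3.24 points in CTR KD cells in a region of 4 windows (z test from the authors' p-values, adjusted p = 2.20e-05), while Pcdhb15 had -17.9 points in YAP KD cells and -16.1 points in CTR KD cells. These genes have many windows, 185 for 27 cadherins and 279 for 22 clustered protocadherins, against 42770 for 12740 genes in all, and a gene with more windows has more chances of a DMR. Their windows lie at medians of 1922 and 1840 bp from a TSS, and the part of window number and distance in the shares was not tested. The study singled out cadherin and Wnt genes on these samples, so the counts of these lists are not independent evidence.

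Signalling pathways were close to the share of all genes or below it. Of 56 Wnt genes 1 gained and 4 lost methylation (1.79% and 7.14%, median -0.34 points), and within 10 kb of a TSS 0 gained and 2 lost it. The gain was near Tcf7l2, a transcription factor of the pathway, with 11.98 points, and the losses were at Prickle1, the co-receptor Lrp5, the inhibitor Dkk2 and the receptor-removing ligase Rnf43. Prickle1 had -20.1 points in YAP KD cells and 0.269 points in CTR KD cells, and Lrp5 had -14.7 points in YAP KD cells and 2.80 points in CTR KD cells (z test from the authors' p-values, adjusted p = 0.00779 and 0.00282). Dkk2 and Rnf43 had -12.3 and -11.9 points in YAP KD cells and -8.91 and -12.8 points in CTR KD cells. Of 36 genes of Nodal, BMP and TGF-beta signalling 1 lost methylation, the ligand Tgfb2 with -15.9 points. Of 34 genes of FGF and ERK signalling 2 did, Fgfr2 and Fgf15 with -26.4 and -10.1 points. The Fgf15 window lies in a noncoding exon of Gm17685, -1187 bp from the TSS of Fgf15. In the Notch list 0 of 25 genes and in the list of Hippo pathway genes and YAP targets 0 of 25 genes had a DMR, with medians of -0.19 and 0.02 points. With the q-value alone and no minimum difference, 1 Notch gene gained and 6 lost methylation, and 4 Hippo genes gained and 3 lost it.

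Growth and housekeeping lists had few changes, mostly gains. Of 16 glycolysis genes 2 gained and 0 lost methylation (12.5%, median 0.18 points), Tpi1 and Gapdh. Gapdh, a later enzyme of the pathway, had 11.9 points in YAP KD cells and 18.1 points in CTR KD cells, in sequence with a median of 2 copies. Of 26 chaperones 2 gained methylation (7.69%), Hsp90ab1 and Hspa8, the constitutive Hsp70, with 12.9 points at a window with a median of 5 copies. Of 33 translation factors 1 gained methylation, Ybx1. Among 71 cytosolic ribosomal protein genes 1 gained, Rpl31 with 15.3 points in YAP KD cells and 22.9 points in CTR KD cells, and 1 lost methylation, Rpl39l with -10.1 points. Of 60 replication histone genes 1 lost methylation, Hist1h2aa. In single-copy sequence alone the naive list had 0 losses and the glycolysis and chaperone lists had 1 gain each.

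The last lists are gene families, most of them of differentiated cells. Of 57 potassium channel genes 11 lost and 0 gained methylation (19.3%, median -0.82 points), led by coding exons of Kcnj12 with -28.7 points and Kcnd3 with -25.7 points. Of 25 olfactory and vomeronasal receptor genes 9 lost methylation (36%), but their windows lay at a median of 14808 bp from a TSS and 26.6% of them in repeated sequence, and within 10 kb of a TSS 3 of these genes had a loss. Of 16 collagen genes 2 lost methylation, Col15a1 and Col6a2. Of 44 axon guidance genes 3 gained and 2 lost methylation. Nrp2, a semaphorin co-receptor, had 14.2 points in YAP KD cells (SE 0.914) and 16.5 points in CTR KD cells in an intron, Ephb3 and Efnb2 had 11.6 and 10.2 points, and Sema5b and Ephb2 had -15.1 and -11.7 points. Of 246 Zfp zinc finger genes 5 gained and 11 lost methylation (2.03% and 4.47%). Zfp704 had 19.5 points in YAP KD cells in a region of 3 windows, and Zfp575 and Zfp608 had -23.6 and -21.2 points. The Zfp575 window lies in a coding exon of another gene, Ethe1, -7465 bp from the TSS of Zfp575.

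**Figure D4:**
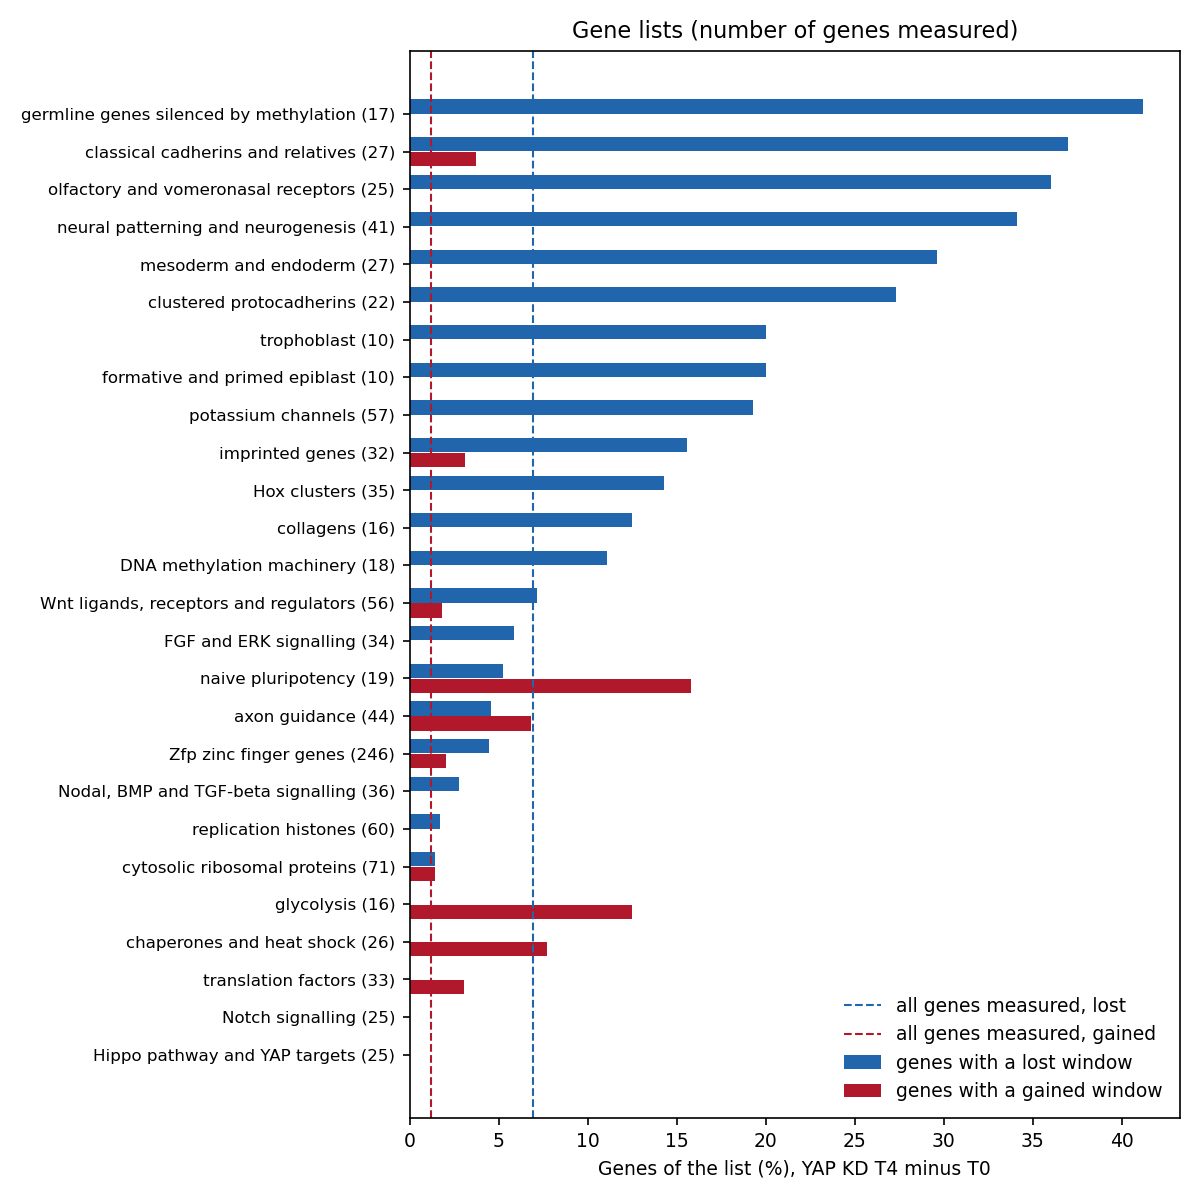
Share of measured genes in each of 26 lists, in percent, that were nearest to a window that lost (blue) or gained (red) methylation in YAP KD T4 minus YAP KD T0, with the number of measured genes in parentheses; dashed lines are the shares over all 12740 genes, 6.91% lost and 1.19% gained. The germline list stands at 41.2% lost, and the naive pluripotency list at 15.8% gained and 5.26% lost.

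Dnmt3a, Dnmt3b, Dnmt3l, Lin28a and Yap1 were looked at whatever their values, and Tet3 because its loss passed the threshold. Of the 18 measured genes of the methylation machinery 2 lost and 0 gained methylation (11.1%, median 0.03 points), Dnmt3a and Tet3, and within 10 kb of a TSS 0 lost it. Of the 5 windows nearest to Dnmt3a 4 were losses, and these form a merged region at chr12:3930126-3930750. The window at chr12:3930501-3930750, called single-copy, had -20.5 points in YAP KD cells (SE 2.66, q = 9.17e-13) and -18.8 points in CTR KD cells. It lies 23809 bp from the TSS, outside the gene. The window at chr12:3930376-3930625, which overlaps it, has a median of 7 copies and the same difference, SE and q-value in YAP KD cells. The value may thus rest on bases that both windows share, so the reads may come from several loci. A coding exon of Tet3 had -12.6 points in YAP KD cells and -0.00982 points in CTR KD cells (z test from the authors' p-values, adjusted p = 0.0536). The only window of Dnmt3l, at its TSS, had 4.27 points in YAP KD cells (SE 1.16, q = 0.00222) and 4.37 points in CTR KD cells, under the minimum of 10 points. The knockdown difference at this window was 0.405 points at T4 and 0.243 points at T0. The 3 windows of Yap1 had between 0.199 and 0.435 points, with a smallest q-value of 0.474. No window was nearest to Dnmt3b or Lin28a.

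Several of the stretches with most regions lay at gene families. The 1170 regions fell in 725 of the 1992 stretches of 1 Mb that held a measured window, and 15 stretches held 5 or more. The stretch of most regions, at 37 Mb of chromosome 18, is that of the clustered protocadherins, with 19 lost and 0 gained regions. There 39 of 324 windows were DMRs in YAP KD cells and 23 of 321 in CTR KD cells. A stretch at 145 Mb of chromosome 4, with Gm13212 and other predicted genes, had 10 lost regions and DMRs at 40.4% of its 52 windows, and 78.8% of these windows were in repeated sequence. The HoxA and Evx1 stretch at 52 Mb of chromosome 6 had 9 lost regions and a median of -1.99 points in YAP KD cells, against -1.40 points in CTR KD cells. At 91 Mb of chromosome 9, around Zic4, 42.1% of 19 windows were DMRs in YAP KD cells, with a median of -5.39 points, against -7.46 points in CTR KD cells. A stretch of major histocompatibility genes at 35 Mb of chromosome 17 had 8 lost regions and 1 gained region. Not all such stretches were gene families. At 46 Mb of chromosome 8, with Fat1 and Sorbs2, 6 regions were lost and 1 was gained, and 27.3% of 44 windows were DMRs. The share of gains among regions ran between 2.44% on chromosome 14 (1 of 41, Wilson 95% interval 0.432 to 12.6%) and 29.9% on chromosome 17 (20 of 67, 20.2 to 41.7%). Both are the extremes of small counts, and the differences between chromosomes were not tested.

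Of 6 short sequence elements, the GC box was less frequent in gained and in lost windows than in all windows. By smaller margins this also held for the TEAD, Zfp57 and cAMP response elements. Each was searched on both strands, and a match describes the letters only. The letters GGAATG, to which TEAD factors bind, were in 9.26% of gained, 9.71% of lost and 10.1% of all windows, and among windows of 10 to 14 CpGs in 9.74%, 10.1% and 12.4%. The E-box CACGTG was in 7.41% of gained, 8.46% of lost and 8.2% of all windows, and TGCCGC, the core bound by Zfp57 at imprinted loci, in 13.4%, 13.2% and 16.4%. The cAMP response element TGACGTCA was in 0.926%, 1.26% and 1.34%, and the octamer ATGCAAAT in 0.463%, 1.47% and 0.898%. Among windows of 10 to 14 CpGs the Zfp57 core was in 9.74% of gained, 12.5% of lost and 10.8% of all windows. There the cAMP response element was in 1.3%, 1.5% and 0.993%. The GC box GGGCGG, which adds CpGs to a window by its own letters, was in 18.1% of gained, 14.7% of lost and 34.2% of all windows, and among windows of 10 to 14 CpGs in 17.5%, 13.4% and 22.6%. Of the printed windows, those of Fgfr2 and Frmpd1 hold 1 TEAD element each.

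The comparison with CTR KD cells asks whether the early loss of YAP went with a different change of methylation during differentiation. CTR KD differentiation had 46579 listed windows, of which 38597 were also listed for YAP KD. In CTR KD cells 1477 windows were DMRs, and gains were 29.9% of 1066 merged regions (Wilson 95% interval 27.3 to 32.7%), while in YAP KD cells they were 14.02% of 1170 (12.1 to 16.1%). Of the 1239 windows lost in YAP KD cells and listed for CTR KD, 1198 were also negative in CTR KD cells and 649 were also called losses there, which is 52.4% of the YAP KD losses and 77.5% of the 837 CTR KD losses in the same windows. Their median was -13.8 points in YAP KD cells and -10.4 points in CTR KD cells. Of the 186 windows gained in YAP KD cells and listed for CTR KD, 184 were positive in CTR KD cells and 137 were called gains there, 73.7% of the YAP KD gains but 36.8% of the 372 CTR KD gains. Their median was 12.4 points in YAP KD cells and 13.6 points in CTR KD cells. Since these windows were chosen by their YAP KD values, the medians are a description.

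The difference between the changes was tested at each window, as the change in YAP KD minus that in CTR KD, by a z test with Benjamini-Hochberg adjustment over 38549 windows. At an adjusted p at or below 0.05, 494 windows differed (1.28%), 415 of them lower and 79 higher in YAP KD cells. The median difference of changes was -8.75 points over the 415 lower windows and 5.38 points over the 79 higher windows, and -0.154 points over all windows. Of the lower windows, 120 were losses in YAP KD cells and 72 were gains in CTR KD cells, and they were nearest to 288 genes. No window passed when the derived SE was doubled, where 242 had an unadjusted p under 0.05 and the smallest adjusted p of the z test was 0.29, against 4343 unadjusted at the SE as derived. The calls thus rest on p-values that need not cover the spread between experiments.

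**Figure D5:**
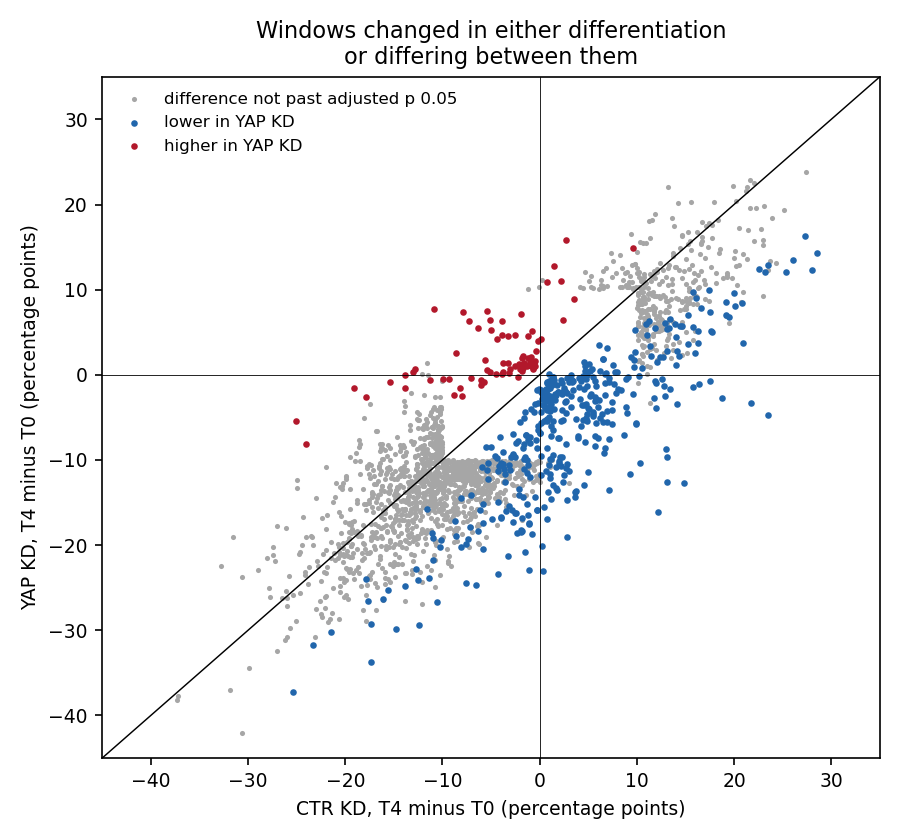
Difference of T4 minus T0 in percentage points in YAP KD cells against that in CTR KD cells, for 2134 windows changed in either differentiation or differing between them; the diagonal marks equal change, and the empty centre follows from the thresholds. The 415 windows lower in YAP KD (blue) and the 79 windows higher in YAP KD (red) are those past an adjusted p of 0.05 in the z test.

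At 4 of the 5 genes with the largest negative differences, methylation rose in CTR KD cells and did not rise in YAP KD cells. The Nfatc4 window, in a coding exon of this calcium-regulated transcription factor, had -4.78 points in YAP KD cells (SE 2.71) and 23.5 points in CTR KD cells (SE 2.78), a difference of -28.3 points (z test from the authors' p-values, adjusted p = 1.31e-09). The knockdown difference at this window was -21.5 points at T4 and 7.10 points at T0. Mta3, a subunit of the NuRD complex, had -16.1 points in YAP KD cells and 12.1 points in CTR KD cells (z test from the authors' p-values, adjusted p = 6.71e-07), and its knockdown differences were -17.9 points at T4 and 10.4 points at T0. Mmgt2, a magnesium transporter of the membrane, had -12.7 points in YAP KD cells and 14.8 points in CTR KD cells, within a coding exon (z test from the authors' p-values, adjusted p = 2.56e-11). Gm14385 had -23.1 points in YAP KD cells and 0.321 points in CTR KD cells. A window -360 bp from a TSS of the imprinted gene Gnas, which encodes the stimulatory G protein alpha subunit, had -9.69 points in YAP KD cells and 13.1 points in CTR KD cells. The knockdown difference at the Gnas window was -9.42 points at T4 (q = 0.164) and 13.4 points at T0 (q = 0.0322).

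Fewer windows were higher in YAP KD cells, and at the largest of these the loss of CTR KD cells was smaller or missing in YAP KD cells. The window nearest to Hace1 had -5.41 points in YAP KD cells and -25.0 points in CTR KD cells (z test from the authors' p-values, adjusted p = 0.00762), but lies 198327 bp from its TSS. Nefm, the medium neurofilament chain, had -8.08 points in YAP KD cells and -24.03 points in CTR KD cells, within a coding exon at chr14:68741876-68742125. Klb, the co-receptor of endocrine FGFs, had -2.60 points in YAP KD cells and -17.8 points in CTR KD cells, -125 bp from its TSS. The window in Frmpd1 had 7.78 points in YAP KD cells and -10.9 points in CTR KD cells (z test from the authors' p-values, adjusted p = 0.0267), and its knockdown differences were 10.5 points at T4 and -8.02 points at T0.

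Several of the largest losses, as changes from T0, were deeper in YAP KD cells than in CTR KD cells. At Slc26a5 the difference of changes was -16.3 points (z test from the authors' p-values, adjusted p = 0.000584). The knockdown difference there was -5.22 points at T4 (q = 0.264) and 11.1 points at T0 (q = 0.00595). At Fkbp6 the change was -29.9 points in YAP KD cells and -14.8 points in CTR KD cells (z test from the authors' p-values, adjusted p = 0.00173). Its knockdown differences were -7.12 points at T4 (q = 0.0782) and 7.87 points at T0 (q = 0.0882). The Gm16889 window, nearest to Vmn2r-ps19, had -31.7 points in YAP KD cells and -23.3 points in CTR KD cells (z test from the authors' p-values, adjusted p = 0.00157). Its knockdown differences were -6.98 points at T4 (q = 7.94e-05) and 1.39 points at T0 (q = 0.697). At other windows with large changes, such as Tpi1, Vnn1, Catsperg1 and Hoxd3, the values of the knockdowns lay within 1 point of each other.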

How the data were processed

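Captured regions (SureSelectXT Methyl-Seq) of 8 libraries were sequenced after bisulphite conversion, 2 for each of YAP KD T4, YAP KD T0, CTR KD T4 and CTR KD T0. Trim Galore, Bismark with Bowtie2, and methylKit on mm9 are named in the submitters' processing notes, and the versions of Bismark, Bowtie2 and methylKit are not given in the sources used here. The authors left out positions covered by fewer than 6 reads and compared the groups over windows of 250 bp every 125 bp. The columns deposited by the authors hold the p-value and q-value of a window and its difference in percent methylation, T4 minus T0, and are the data described here, since the tables hold nothing per sample. The sign of the knockdown tables (YAP KD minus CTR KD) was settled by the closure of the 4 tables.

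The SE of a window was derived by dividing its absolute difference by the z value of its two-sided p-value. The z test, two-sided, divides the difference of the changes by the root of the summed squared SEs; it was tested on simulated data, and 48 windows without an SE could not be tested. Windows were assigned to the nearest TSS and to features with the GENCODE annotation of NCBIM37, and called single-copy where the median genome count of their 31-mers was 1. Of 742 list symbols, 9 matched by a synonym from the RefSeq table of GRCm38.p6 and 3 did not match. Wilson intervals (95%) cover counting only.

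The members, the lists and the tests were chosen with earlier results of these data known. Genes were named by rule: the 10 largest gains and losses, the 5 and 10 largest within 1 kb of a TSS, the 5 regions of most windows in each direction, the 5 largest differences between knockdowns in each direction, up to 4 genes per list and direction, and Dnmt3a, Dnmt3b, Dnmt3l, Lin28a and Yap1. Other list members given by value (for example Emx2, Figla and Hormad1) fall outside this rule and were named after their values were seen, and 1 list member is not reported here. The alternatives tried were other thresholds, merged or non-overlapping windows, single-copy, autosomal or commonly listed windows, genes within 10 kb and doubled SEs. Python 3.11.15, numpy 2.4.6, pandas 2.3.3, scipy 1.17.1 and matplotlib 3.10.9 were used.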

Additional observations from a re-analysis of the deposited data

Results flagged for a closer look

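The change during differentiation differed between YAP KD and CTR KD cells at 494 windows by the z test with Benjamini-Hochberg adjustment, and at 20 of the windows named by rule. The values that follow are the change in YAP KD minus that in CTR KD cells, in percentage points. Among these windows it was negative at Nfatc4 (-28.3), Mta3 (-28.2), Mmgt2 (-27.5), Gm14385 (-23.4), Gnas (-22.8), Peg10 (-20.7), Prickle1 (-20.3), Pcdha11 (-18.0), Zfp423 (-17.9), Lrp5 (-17.5), Slc38a4 (-17.4), Slc26a5 (-16.3), Fkbp6 (-15.1) and Vmn2r-ps19 (-8.37). It was positive at Hace1 (19.6), 2900093L17Rik, whose TSS is nearest to the Frmpd1 window (18.7), AC165092.1 (17.6), Nefm (15.9), Klb (15.2) and Commd1 (11.3). The Emx2 window (-12.7), which was named outside the rule, also passed the z test. None of the 494 windows passed with doubled standard errors, where 242 windows had an unadjusted p under 0.05.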

How the results depend on the processing

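No paired analysis was possible because the tables hold no value per sample, and for the same reason leaving out each replicate could not be run. The 1647 changed windows (216 gained, 1431 lost) became 6898 (1462 and 5436, gain share 21.2%) with no minimum difference, 234 (11 and 223, 4.70%) with a minimum of 20 points, 823 (104 and 719) without overlapping windows, 1066 (141 and 925) within 10 kb of a TSS and 665 (96 and 569) with doubled SEs. With a q-value of 0.01, merged regions, single-copy sequence, autosomes or windows listed in all 4 comparisons, the count stayed within 1.5 times and the gain share between 12.97% and 14.02%. The 494 differing windows (415 lower, 79 higher in YAP KD) became 0 (0 and 0) with doubled SEs, with 242 at an unadjusted p under 0.05, 205 (182 and 23) at an adjusted p of 0.01 and 196 (174 and 22) with a minimum of 10 points, and 43 were higher among windows changed in either differentiation. With doubled SEs, 36 of the named windows past the threshold no longer passed. With a minimum of 20 points, the genes with a loss became 4 in the germline, 6 in the neural, 4 in the potassium channel and 0 in the mesoderm and endoderm and in the cadherin lists, and 30 of 52 list counts moved by over 1.5 times, against 47 with no minimum, 9 within 10 kb of a TSS and 3 in single-copy sequence. Within 10 kb, losses became 0 in the naive, 1 in the formative and 1 in the collagen list, and axon guidance gains became 1. Depth is unknown, so the precision of a window is known only through its p-value.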
